A study of Mus musculus with 4 samples.

Results

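The genes described here encode the intraflagellar transport complex A (IFT-A) and the chains that are particular to cytoplasmic dynein-2, the motor that carries IFT-A trains back from the tip of a cilium or flagellum to its base. They were chosen by name, as 10 gene symbols. Of these, 9 were found among the 22311 gene symbols of the files: Ift122, Ift140, Wdr19, Wdr35 and Ttc21b of IFT-A and Dync2h1, Dync2li1, Wdr34 and Wdr60 of dynein-2. The remaining one, Ift43, is listed under its older clone name, 1700019E19Rik, which RefSeq gives as a synonym. Its values are given as an addition and are not among the counts of the 9 genes.

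Total RNA from whole testes was sequenced at postnatal day 24 (P24) from 2 Rfx2 mutant and 2 control samples, called mutant 1 and 2 and control 1 and 2. The mutant mice were rfx2-/-, made by conventional targeting of embryonic stem cells from a single clone, so that every cell of the animal lacked the exons encoding the DNA-binding domain of RFX2. The labels give the control genotype as wild type and the strain of all samples as DBA, whereas the study's methods describe heterozygous controls and a mixed background of 129/s6 and C57BL/6. All animals were male, and mutants that grew normally were the ones studied. The comparison asks which genes depend on RFX2, a transcription factor of spermatocytes and round spermatids that binds the X-box motif. At this age round spermatids are present and, per the paper, had not yet detached in large numbers. The paper also describes fewer round spermatids in some younger mutants, and blocked flagellum assembly in mutants at P24. The unit is FPKM, fragments scaled by gene length and by the number of fragments mapped, and limma was applied to log2(FPKM + 1) of the 12985 genes that reached an FPKM of 1 in 2 or more samples.

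Intraflagellar transport builds cilia and most flagella by moving trains of protein complexes along the axoneme. IFT-B trains are driven outward by kinesin-2, and IFT-A together with dynein-2 is needed for the return. IFT-A has a core and a periphery, and it also brings membrane receptors into cilia. Loss of IFT-A or dynein-2 subunits leaves short, swollen cilia, and mutations in these genes cause skeletal ciliopathies. In the testis the sperm flagellum starts to grow from round spermatids.

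The targeted gene, Rfx2, measured over its whole length, had 36.7 and 39.8 FPKM in mutant testes versus 123 and 89.4 FPKM in control testes. The log2 fold change was -1.43, with an adjusted p of 0.00617 in limma. That adjusted p was 0.0607 without a filter, 0.0829 with median-ratio scaling and 0.0628 without control 1. Estimated from the confidence bounds, the values corresponded to 17.2 M to 20.3 M fragments per sample. This is not a measured depth, and the paper reports more reads than this for every sample. In each sample, 12557 to 12942 genes reached an FPKM of 1.

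The IFT-A and dynein-2 genes were all well expressed in P24 testes of both genotypes, and none of the 9 passed the test for a difference. The lowest levels relative to control were those of Dync2li1, Wdr60 and Wdr35, whose mean FPKM in mutant testes was 67.8%, 70.9% and 72.7% of that in control testes. The core genes Ift140, Wdr19 and Ift122 had mutant means between 92.2% and 102% of control. At an adjusted p under 0.05 (limma, Benjamini-Hochberg over all genes tested), 0 of the 9 genes were lower and 0 were higher, where 2.52% of all genes tested were lower, 0.308% were higher and 2.83% were either. At an unadjusted p under 0.05 in limma, 3 of the 9 were lower and 0 were higher, against 6.68% and 2.01% of all genes tested. The 9 genes had a median log2 fold change of -0.11, and all genes tested had one of 0.032. The testes are mixtures of cells, and fewer cells of a type cannot be told apart from less RNA per cell.

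Levels, which FPKM allow to be compared between genes, spanned almost an order of magnitude within the complexes. Averaged over the 4 samples, FPKM ran from 112 for Ift140 through 76.4 for Ift122, 46.3 for Wdr35, 45.9 for Ttc21b, 40.6 for Wdr34, 25.7 for Wdr60 and 25.3 for Dync2li1 to 15.2 for Wdr19 and 14.3 for Dync2h1. Ift43 under its clone name stood above all of them with 142 FPKM. The ranges over the 4 samples overlapped between the neighbours Wdr35 and Ttc21b, Ttc21b and Wdr34, Wdr60 and Dync2li1, and Wdr19 and Dync2h1, and were separate for the other neighbours in this order. Even Dync2h1, the lowest, was above 60.9% of the genes tested.

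**Figure D1:**
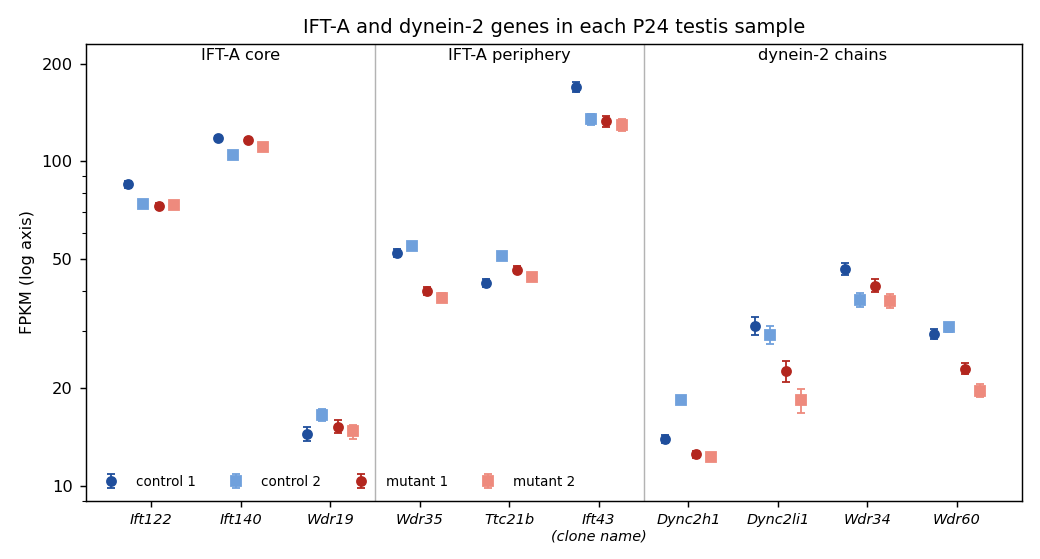
FPKM of each IFT-A and dynein-2 gene on a log axis in control 1, control 2, mutant 1 and mutant 2, with Ift43 shown under its clone-name entry. Vertical lines are the authors' confidence bounds, which cover counting error. Both mutant samples lie clearly below both control samples for Wdr35, Dync2li1 and Wdr60, whereas the samples of Ift140, Wdr19, Ttc21b and Wdr34 intermingle.

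The 3 genes of the IFT-A core had log2 fold changes from -0.11 to 0.026. Ift140, a core scaffold subunit, had FPKM of 116 in mutant 1, 111 in mutant 2, 118 in control 1 and 105 in control 2. The values of both mutant samples lay between those of the control samples. Its log2 fold change was 0.026 with a standard error of 0.16 and a 95% interval from -0.35 to 0.41 (adjusted p = 1.0 from limma). Wdr19, which encodes another core subunit, was at 15.2 and 14.7 FPKM in mutant testes versus 14.5 and 16.5 FPKM in control testes. Here too the genotypes overlapped, with a log2 fold change of -0.046 and a 95% interval from -0.46 to 0.37. Ift122, the other core gene, had 73.0 and 73.6 FPKM in mutant testes versus 85.1 and 73.9 FPKM in control testes. The mutant samples were lower than control 2 by less than 1 FPKM, and the log2 fold change of -0.11 had a 95% interval from -0.49 to 0.26. Control 1 was thus the only sample that stood apart for Ift122. The FPKM of Ift140 was 7.63 and 7.52 times that of Wdr19 in the mutant samples and 8.15 and 6.35 times in the control samples. The mutant ratios lay within the control range. RNA levels of genes whose products form a complex need not match the numbers of the proteins.

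In the IFT-A periphery, Wdr35 and Ttc21b differed from each other in pattern. Wdr35, whose product is needed for the entry of membrane proteins into cilia, had FPKM of 39.9 in mutant 1, 38.0 in mutant 2, 52.2 in control 1 and 54.9 in control 2. Both mutant samples were well below both control samples, and replicates were close to each other. The log2 fold change was -0.45 with a standard error of 0.15 and a 95% interval from -0.81 to -0.091. The unadjusted p was 0.0204 and the adjusted p was 0.330 in limma, so the difference did not pass the threshold. Ttc21b, whose product sits at the outside of the complex, had 46.4 and 43.9 FPKM in mutant testes versus 42.2 and 51.2 FPKM in control testes. Its genotypes overlapped, and its log2 fold change was -0.043 with a 95% interval from -0.43 to 0.35. The order of the pair therefore changed: the FPKM of Wdr35 was 0.861 and 0.865 times that of Ttc21b in the mutant samples and 1.24 and 1.07 times in the control samples. This change of order is a description and was not tested.

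Ift43, a small peripheral subunit, was at 133 and 129.5 FPKM in mutant testes versus 169.6 and 135 FPKM in control testes under its clone name. Both mutant samples were below both control samples, mutant 1 only slightly so, and control 1 was well above the other samples. The log2 fold change was -0.20 with a 95% interval from -0.62 to 0.22 (adjusted p = 1.0 from limma).

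The dynein-2 chains had a median log2 fold change of -0.41 over the 4 genes, none of which passed the threshold. Dync2li1, the light intermediate chain that stabilises the motor, had FPKM of 22.5 in mutant 1, 18.3 in mutant 2, 31.1 in control 1 and 29.2 in control 2. The mutant samples were both lower, mutant 2 the more so. The log2 fold change was -0.55 with a standard error of 0.18 and a 95% interval from -0.96 to -0.14. With an unadjusted p of 0.0154 and an adjusted p of 0.269 in limma, this largest difference among the 9 genes also missed the threshold.

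Wdr60, an intermediate chain, had 23.0 and 19.7 FPKM in mutant testes versus 29.4 and 30.8 FPKM in control testes. The genotypes were separate and the control samples were close together. Its log2 fold change was -0.48 with a standard error of 0.17 and a 95% interval from -0.87 to -0.089 (unadjusted p = 0.0223, adjusted p = 0.347 from limma). Wdr34, the other intermediate chain, was at 41.4 and 37.1 FPKM in mutant testes versus 46.6 and 37.4 FPKM in control testes. Mutant 1 lay between the control samples, so that the genotypes overlapped, and the log2 fold change was -0.088 with a 95% interval from -0.50 to 0.32. The products of both genes sit together in one dynein-2 motor, and the FPKM of Wdr34 was 1.80 and 1.89 times that of Wdr60 in the mutant samples and 1.59 and 1.22 times in the control samples. Both mutant ratios were above both control ratios, without a test.

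Dync2h1, the heavy chain with the motor domain, had 12.5 and 12.3 FPKM in mutant testes versus 14.0 and 18.4 FPKM in control testes. The mutant samples nearly coincided, and the control samples were farther apart from each other than control 1 was from the mutants. The log2 fold change was -0.35 with a standard error of 0.20 and a 95% interval from -0.81 to 0.11 (adjusted p = 0.903 from limma). Leaving out control 1 gave -0.53 and leaving out control 2 gave -0.16, so the size of this difference rests on which control is used.

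Among the 9 genes, both mutant samples were below both control samples for 5 (Ift122, Wdr35, Dync2h1, Dync2li1 and Wdr60) and above them for 0. Over all genes tested this held for 15.2% below and 16.3% above. Of the 9 genes, 8 had a negative log2 fold change, and the exception was Ift140, while 5542 of the 12985 genes tested had a negative one. The 95% intervals, each for its own gene and not adjusted for their number, all lay between -1 and 1, as did those of 87% of the genes tested. These intervals are on the scale of FPKM + 1, on which a fold change is smaller than on that of FPKM.

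**Figure D2:**
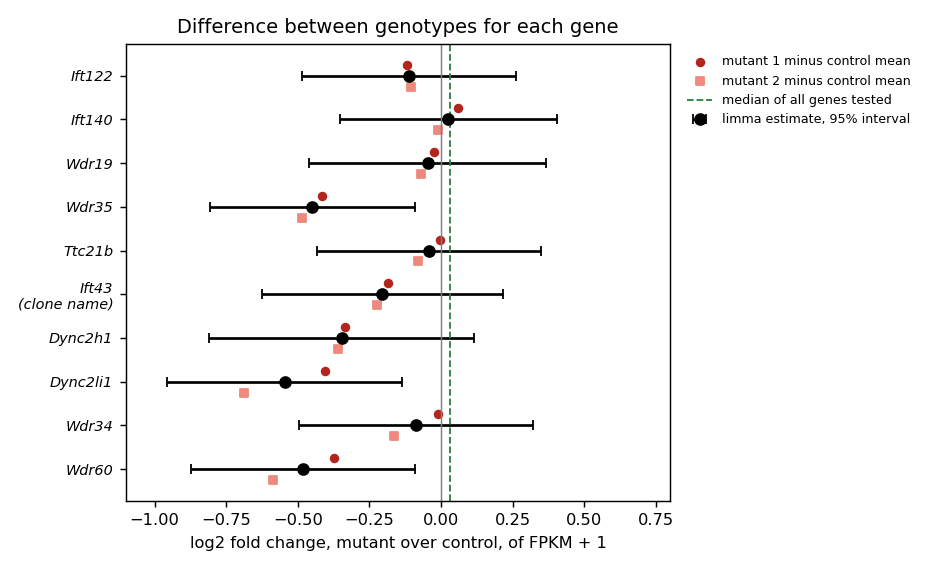
Log2 fold change of FPKM + 1, mutant over control, for the 9 genes and Ift43 under its clone name. Black points with bars are limma estimates with 95% intervals, coloured points are each mutant sample minus the control mean, and the dashed line is the median of all genes tested (0.032). The intervals of Wdr35, Dync2li1 and Wdr60 lie below 0, and no interval reaches -1 or 1.

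The spread between replicates was larger than the counting error for most of these genes in the control testes. The confidence bounds deposited with the FPKM correspond to between 531 and 19589 fragments per gene and sample, and each bound lay 1.43% to 8.68% of the FPKM away from it. The bounds of control 1 and control 2 did not overlap for 7 of the 9 genes, and those of mutant 1 and mutant 2 did not for 4. The difference between replicates had a median of 13.3% of their mean in the control and 5.05% in the mutant samples. It was highest for Dync2h1 in the control samples, at 27.2%, and for Dync2li1 in the mutant samples, at 20.6%. These counts and medians were not taken over all genes tested, so they are not shown to be particular to these genes. Median-ratio size factors were 0.947 and 1.05 in control 1 and 2 and 1.07 and 0.965 in mutant 1 and 2. The FPKM compared here were not scaled by them. The intervals above come from the spread between samples, with the variance of each gene drawn toward a trend over all genes tested.

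Mutant 1 stood apart from the other samples in late germ cell transcripts. The summed FPKM of 9 elongating spermatid markers, among them Prm1 and Tnp1, was 1393 in mutant 1, 6762 in mutant 2, 8079 in control 1 and 5489 in control 2. The summed FPKM of 6 round spermatid markers was also lowest there, to a smaller extent. It was 413 and 625 in mutant testes versus 555 and 453 in control testes. The markers were not uniform: Zpbp and Acr were lowest in control 2, at 53.1 and 114 FPKM, versus 56.7 and 134 FPKM in mutant 1. Izumo1, a sperm-egg adhesion gene, had 17.2 FPKM in mutant 1, 39.6 in mutant 2, 36.6 in control 1 and 32.3 in control 2. The median log2 fold change of the round spermatid markers was 0.28 without mutant 1 and -0.27 without mutant 2. The sums of 6 Sertoli cell markers were 117 and 96.5 in mutant testes versus 76.7 and 113 in control testes. The median log2 fold changes of the spermatogonial, spermatocyte, round spermatid, elongating spermatid, Sertoli cell, Leydig cell and macrophage markers were 0.075, 0.091, 0.046, -0.67, 0.11, 0.022 and -0.13. For the elongating spermatid markers the median was 0.12 without mutant 1 and -1.39 without mutant 2. Of the 44 markers tested, 0 passed an adjusted p under 0.05 in limma (0 also at an unadjusted p), where 2.83% of all genes tested passed the adjusted threshold. At the unadjusted one, 6.68% of all genes tested were lower and 2.01% higher. The 4 of the 9 genes with the lowest log2 fold changes, picked for that, were at least as far below control in mutant 2 as in mutant 1. Whether the mix of cells bears on these values was not tested. For Dync2li1 the log2 difference from the control mean was -0.40 in mutant 1 and -0.69 in mutant 2, for Wdr60 it was -0.37 and -0.59, for Wdr35 it was -0.41 and -0.48, and for Dync2h1 it was -0.34 and -0.36. Each of these differences is also the log2 fold change of that gene with the other mutant sample left out.

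RFX2 binds the X-box, so the best match to it near the start of each gene is shown, whatever its number of mismatches. The standard X-box motif has a left and a right arm of 6 bases each and a gap of 0 to 3 bases, with 11 positions restricted to a base or a pair of bases. It was searched on both strands up to 1000 bases to either side of the first annotated start in NCBIM37 (mm9), the build the reads were aligned to. Each line gives the best match of a gene in capitals with 7 flanking bases on either side in lower case, read 5′ to 3′ on the strand of the match. Dynlrb2, a dynein light chain gene whose RNA fell, is shown for comparison. It was picked from the transport genes that passed the threshold. The others, Ift27 (lower) and Ift74 and Ift81 (higher), had best matches with 1 mismatch and are not shown.
Dync2li1: ctcctcgGTTGCCATGGCAACgacgtca
Wdr35: agctcccGTCGCCTGGCAACcaccgcc
Wdr34: cgggaccGTCGCCATGGCAATgtgcgcg
Wdr60: cgtccccGCCTCCTAGCAACgggccga
Ift122: tacctgcGCTACCCTTAGCAACgcacatg
Ift140: gcacacgGTCACCCAGGGAACcctgtgc
Wdr19: gttaaccGTGACCTGCAACaagcaaa
Ift43: cagtccgGTTACCTAGTTACtccctct
Ttc21b: gtccatgGCCGCCGGCTACccggagg
Dync2h1: acagcgcGGCACCTACAGTAGCagcgaag
Dynlrb2: ctgcctgGTTGCCTAGCAACgggggaa

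Of the 9 genes and Ift43, 2 had an X-box without mismatch, Dync2li1 and Wdr35, which is 20% of them, against 4.6% of the 12620 tested genes with a position. These 2 of 10 are a description of the list. The X-box of Dync2li1 reads the same on both strands and lies 43 to 30 bases before the start at chr17:85025793-85025806, upstream of its only annotated coding transcript. That of Wdr35 is on the opposite strand at positions 150 to 162, counting the first transcribed base as 1, at chr12:8980847-8980859, in an untranslated exon of both of its coding transcripts. The best match had 1 mismatch in Wdr34, Ift122, Ift140, Wdr19 and Ift43 and 2 mismatches in Wdr60, Ttc21b and Dync2h1. A match with at most 1 mismatch was present near 48% of all tested genes, so it says little about any gene. The match of Wdr34 began at position 7, in a coding exon, and that of Wdr60 at position 9, in an untranslated exon. Wdr60 and Dync2h1, with mutant means of 70.9% and 76.6% of control, had no match with fewer than 2 mismatches in this window.

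**Figure D3:**
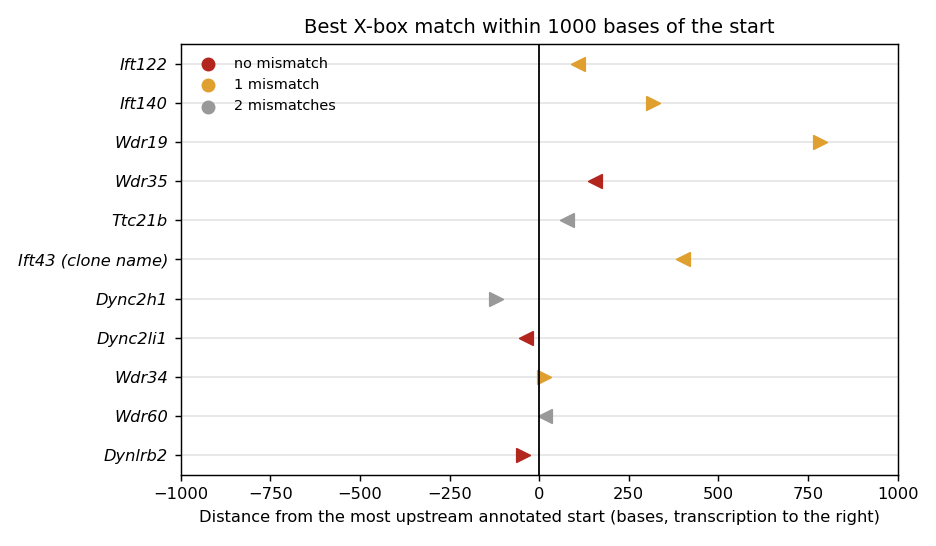
Position of the best X-box match of each gene relative to its most upstream annotated start, in bases, with transcription to the right. Red, orange and grey mark 0, 1 and 2 mismatches, and arrowheads point right on the strand of the gene and left on the opposite strand. Dync2li1, Wdr35 and, for comparison, Dynlrb2 have a match without mismatch.

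The 150 bases before the annotated start show the setting of these matches, with the X-box in capitals where it falls inside. Dync2li1 (chr17:85025686-85025835, plus strand) and Dynlrb2 (chr8:119028765-119028914, plus strand) each hold theirs close to the start, while the X-box of Wdr35 lies beyond the end of the stretch shown (chr12:8980548-8980697, plus strand).
Dync2li1: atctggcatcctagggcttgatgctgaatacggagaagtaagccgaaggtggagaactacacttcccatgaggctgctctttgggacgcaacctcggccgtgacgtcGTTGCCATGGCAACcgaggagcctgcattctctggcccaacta
Dynlrb2: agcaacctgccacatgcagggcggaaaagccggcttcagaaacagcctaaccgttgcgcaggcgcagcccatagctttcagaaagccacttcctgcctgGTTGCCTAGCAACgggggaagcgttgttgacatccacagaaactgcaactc
Wdr35: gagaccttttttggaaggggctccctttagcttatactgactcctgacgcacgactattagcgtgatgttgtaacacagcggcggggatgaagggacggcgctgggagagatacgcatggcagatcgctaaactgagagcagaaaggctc

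The genes are spread over several chromosomes in mm9. Of IFT-A, Ift122 is at chr6:115803488-115876717, Ift140 at chr17:25153036-25236440, Wdr19 at chr5:65590935-65651654, Wdr35 at chr12:8980698-9035653, Ttc21b at chr2:66022384-66094674 and Ift43 at chr12:87423513-87503408. Of dynein-2, Dync2h1 is at chr9:6928503-7184446, Dync2li1 at chr17:85025836-85054898, Wdr34 at chr2:29887066-29904401 and Wdr60 at chr12:117445523-117501498. The targeted gene Rfx2 is also on chromosome 17, 28.1 Mb from Dync2li1 and 31.7 Mb from Ift140. The longest coding transcript has 90 exons and 14264 bases for Dync2h1 and 13 exons and 1324 bases for Dync2li1.

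Dynein-2 shares most of its light chains with other dyneins, and in the list of these genes a single gene passed the threshold. Dynlrb2, a roadblock-type light chain that the study itself chose on these samples, fell: its FPKM was 47.8 and 35.3 in mutant testes versus 134 and 116 in control testes. Its log2 fold change was -1.58 with a standard error of 0.19 (adjusted p = 0.00371 from limma, and 0.0577 without control 1). Dynlrb1, the other roadblock-type gene, had 31.0 and 29.5 FPKM in mutant testes versus 23.8 and 27.6 FPKM in control testes, with a log2 fold change of 0.23 and an adjusted p of 1.0 in limma. The FPKM of Dynlrb2 was 1.54 and 1.19 times that of Dynlrb1 in the mutant samples and 5.62 and 4.18 times in the control samples. This list holds 11 genes: Dynll, Dynlrb and Dynlt genes, Tctex1d2 and the IFT-A cargo adaptor Tulp3. In all, 1 of 11 was lower and 0 were higher at an adjusted p under 0.05 in limma. Of all genes tested, 2.52% were lower and 0.308% higher at that threshold. The median log2 fold change of the list was 0.0024. The Dynlt1 genes are near-identical copies, so their separate values are uncertain.

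The outward-moving IFT-B complex held both directions. Of 18 IFT-B genes tested, 1 was lower and 2 were higher at an adjusted p under 0.05 in limma. At an unadjusted p under 0.05, 7 were lower and 3 higher. Of all genes tested, 2.52% were lower and 0.308% higher at the adjusted threshold, and 6.68% and 2.01% at the unadjusted one. The median log2 fold change of the IFT-B genes was -0.19. Ift27, a small GTPase, fell from 35.2 and 33.9 FPKM in the control to 20.6 and 16.6 FPKM in the mutant samples, with a log2 fold change of -0.86 and an adjusted p of 0.0478 in limma. Ift74 and Ift81, the tubulin-binding pair that the study chose on these samples, rose, with log2 fold changes of 0.94 and 0.82 (adjusted p = 0.0253 and 0.0453 from limma). All 3 calls were lost with either control left out: the adjusted p for Ift27, Ift74 and Ift81 was 0.393, 0.0672 and 0.189 without control 1 and 0.289, 0.124 and 0.307 without control 2 in limma. Ift74 had 188 and 187 FPKM in mutant testes versus 104 and 90.6 FPKM in control testes. Ift81 had 80.2 and 69.7 FPKM in mutant testes versus 44.5 and 39.4 FPKM in control testes. None of the IFT-A genes had a mean that differed by this much, and no test compared the complexes.

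The motors that serve other routes gave no call. Of the kinesin-2 genes, which drive outward transport, 4 of 5 were tested, with 0 lower and 0 higher and a median log2 fold change of -0.19. The largest difference was that of Kifap3 (-0.34), at 28.6 and 42.2 FPKM in mutant testes versus 44.8 and 43.9 FPKM in control testes. Of the 5 subunits particular to cytoplasmic dynein-1, which carries cargo in the cell body, 0 were lower and 0 were higher, and the median was 0.033. Dync1i1 was farthest from 0, with a log2 fold change of 0.17, at 8.34 and 6.75 FPKM in mutant testes versus 6.01 and 7.13 FPKM in control testes. In these lists 0 genes passed at an unadjusted p under 0.05 in limma, where 6.68% of all genes tested were lower and 2.01% higher.

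**Figure D4:**
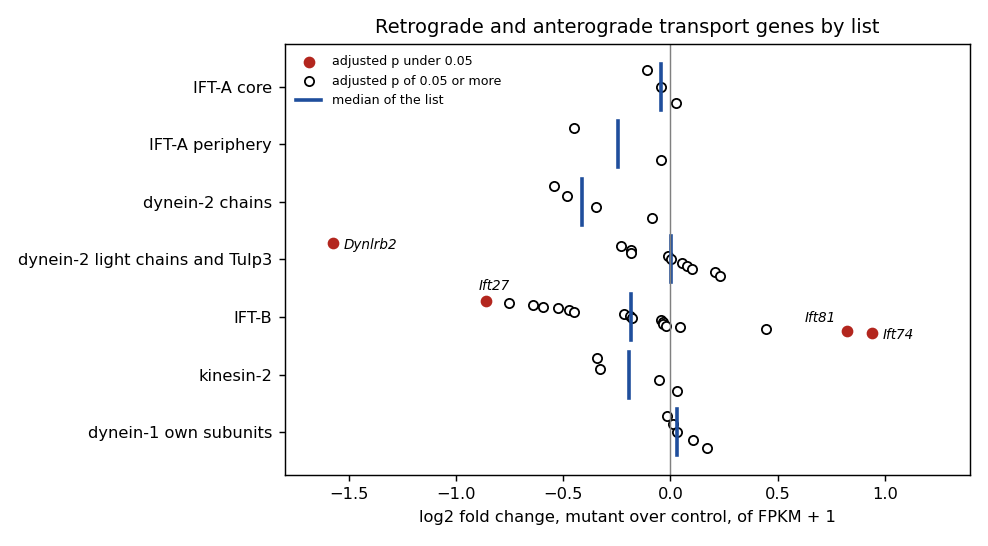
Log2 fold change of FPKM + 1, mutant over control, of each tested gene of the transport complexes and motors, 1 point a gene and 1 row a list. Filled red points passed an adjusted p under 0.05 in limma, open points did not, and blue bars are list medians. The IFT-A core and dynein-1 genes cluster near 0, the dynein-2 chains have a median of -0.41, and the 4 red points are Dynlrb2, Ift27, Ift74 and Ift81.

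By the Euclidean distance between profiles of log2(FPKM + 1), centred on the mean of each gene over the 4 samples, 6 of the 9 genes were in pairs of mutually nearest genes. Wdr35 and Wdr60 were each other's nearest of the 9, at a distance of 0.106. Wdr19 and Ttc21b were a second pair, at 0.0691, in which control 2 was the highest sample for both. Ift122 and Wdr34 were another, at 0.143, with control 1 the highest for both. The nearest of the 9 to Ift140, Dync2h1 and Dync2li1 were Ift122, Wdr35 and Wdr60, at 0.151, 0.239 and 0.136, without being paired in turn. Among the other 12984 genes tested, the nearest to Dync2li1 were Snrnp25, Got1 and Plxnb2, at distances of 0.0511, 0.0553 and 0.0569. The distances rest on 4 samples and are a description only.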

How the data were processed

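RNA from whole P24 testes of 2 Rfx2 mutant and 2 control mice was sequenced by the authors on an Illumina HiSeq instrument. Per the paper and the submitters' processing notes, alignment to mm9 used TopHat2 2.0.6, and the authors assembled transcripts with Cufflinks on the UCSC annotation. The deposited values are FPKM per gene with confidence bounds, normalized by gene length and depth within a sample. The files show no scaling between samples. Counts of reads were not analysed here. The fragments behind a value were estimated from the width of the bounds.

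Entries sharing a symbol were summed. Log2(FPKM + 1) was tested in limma 3.58.1 under R 4.3.3 (lmFit, then eBayes with trend on, two-sided) and adjusted by Benjamini-Hochberg over 12985 genes, with a threshold of 0.05 and no replicate block. Cuffdiff, which the study used, needs reads. On simulated data with 100 genes changed 2-fold and 100 changed 4-fold among 12985 genes, the same functions called 9% and 65%, with 3 unchanged genes called. Each gene was simulated with the spread between its own replicates, so these rates need not hold for the real data. With 2 samples per genotype, p-values measure only the spread between these samples, over all genes and not of each gene alone. In eBayes, the variance of each gene is drawn toward a trend over all genes tested. Starts and sequences came from Gencode M1 and NCBIM37 (mm9).

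The genes, the lists and the tests were chosen with earlier results of these data known. Named are the 10 genes, Rfx2, the genes of the transport lists with an adjusted p under 0.05 or the largest difference, and those nearest in profile. Other genes were named after their values were seen. Alternatives tried were no filter, pseudocounts of 0.1 and 0.01, a filter at an FPKM of 5, median-ratio scaling, quantile normalization, eBayes without trend or robust, a replicate block, the highest entry per symbol and leaving out each sample. The crossed replicate block was chosen after seeing the data. Tables were handled in pandas 2.3.3 and numpy 2.4.6 under python 3.11.15, and plots drawn in matplotlib 3.10.9.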

Additional observations from a re-analysis of the deposited data

How the results depend on the processing

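None of the 9 genes passed an adjusted p under 0.05 in any of the 15 alternatives, and Wdr35, Wdr60, Dync2li1, Dync2h1 and Ift122 stayed below 0 in all 15. Over these alternatives the adjusted p from limma ran from 0.0598 to 0.922 for Dync2li1, 0.279 to 0.931 for Wdr35 and 0.177 to 0.931 for Wdr60. Ttc21b changed sign with quantile normalization (0.0027). With a sample left out, log2 fold changes ran from -0.058 to 0.11 for Ift140, -0.14 to 0.044 for Wdr19, -0.18 to 0.093 for Ttc21b and -0.24 to 0.066 for Wdr34, and the median of the 9 genes ran from -0.21 to -0.12.

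Over all genes, 327 were lower and 40 higher as reported. These became 199 and 17 without a filter, 202 and 17 with a filter at an FPKM of 5, and 206 and 16 with median-ratio scaling. Robust eBayes gave 67 higher genes. With a sample left out, 167 to 948 genes were lower (the fewest without control 1, the most without mutant 2) and 13 to 162 higher (the fewest without control 2, the most without mutant 1). The 1 lower and 2 higher IFT-B genes became 0 and 1 with pseudocounts of 0.1 and 0.01, a filter at 5, quantile normalization and eBayes without a trend, 0 and 0 without a filter, with median-ratio scaling and with the crossed replicate block, and 0 to 1 and 0 to 2 with a sample left out. The cause of these shifts was not tested. The replicate block gave 525 lower and 70 higher genes, and it changed no call among the 9 genes. Across genes, the deviations of samples sharing a number correlated at -0.15, and the crossed replicate block, added for this, gave 266 lower and 28 higher genes. The numbers in the labels are not stated to pair samples, and each block leaves a single residual degree of freedom. Leaving out a sample leaves a genotype with a lone sample, which is assumed to vary like the other genotype. At 2 samples per genotype, most 2-fold differences were not called in simulated data. Those rates need not hold for the real data, where Ift74 and Ift81 were called with log2 fold changes of 0.94 and 0.82.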

Other observations

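Ttc21a, a paralog of the IFT-A gene Ttc21b that was outside the lists and was picked after its values were seen, had FPKM of 23.1 in mutant 1, 33.8 in mutant 2, 51.0 in control 1 and 40.2 in control 2. Both mutant samples were below both control samples. Its log2 fold change was -0.68 with a standard error of 0.22 and a 95% interval from -1.19 to -0.16, and it did not pass the threshold (unadjusted p = 0.0163, adjusted p = 0.280 from limma). The FPKM of Ttc21a was 0.499 and 0.770 times that of Ttc21b in the mutant samples and 1.21 and 0.785 times in the control samples.

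Several further IFT-B genes had lower means without passing the threshold. Of the 18 IFT-B genes tested, 14 had a negative log2 fold change. Ift46 went the other way, at 59.6 and 56.5 FPKM in mutant testes versus 49.1 and 36.5 FPKM in control testes (adjusted p = 0.539 from limma). Rabl5, which encodes a small GTPase-like subunit, had FPKM of 84.0 and 84.0 in mutant testes versus 122 and 109 in control testes (adjusted p = 0.358 from limma). Ift57, the only IFT-B gene with an X-box without mismatch near its start, had 19.5 and 18.5 FPKM in mutant testes versus 34.8 and 24.6 FPKM in control testes (adjusted p = 0.317 from limma). Ttc30a2 had 49.5 and 45.8 FPKM in mutant testes versus 81.1 and 69.0 FPKM in control testes (adjusted p = 0.123 from limma), and since Ttc30a1, Ttc30a2 and Ttc30b are close copies their separate values are uncertain.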
